A study of Mus musculus with 48 samples.

Results

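Collagens are the triple-helical proteins of the extracellular matrix, and the collagen genes of hippocampal neurons were described here across 16 populations of mouse neurons. The members were all genes of the deposited count table whose mouse symbol has the form Col, a number, a and a number. This gave 44 genes of 37620, of which 32897 had a symbol. The classes held 11 fibrillar chains, 9 network-forming chains, 9 FACIT chains (fibril-associated collagens with interrupted triple helices), 6 beaded-filament chains, 4 transmembrane collagens, 2 multiplexins and 3 others.

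The study sequenced RNA from fluorescent neurons that were sorted by hand out of microdissected slices, with 3 libraries for each of 16 populations and 48 libraries in all. The populations were parvalbumin (PV) and somatostatin (SST) interneurons of CA1, granule cells of the dorsal and the ventral dentate gyrus (DG), and pyramidal cells of dorsal and ventral CA3. The other 10 populations were all CA1 pyramidal cells. Of these, 3 were defined by target, namely dorsal cells projecting to the postsubiculum and ventral cells projecting to the amygdala or to the nucleus accumbens. A further 3 lay along the long axis (dorsal, intermediate and ventral), 2 along the transverse axis (proximal and distal) and 2 along the radial axis (superficial and deep). No population was treated. Reporter lines, ages and the number of animals per library are not given in the sources used here. The design text calls the replicates biological, but the labels do not tie them to separate animals, so p-values measure the spread between these libraries.

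A collagen chain carries long runs in which glycine recurs at a fixed step, and 3 such chains wind into a triple helix. Fibrillar collagens build the fibrils of connective tissue. FACIT collagens decorate those fibrils, type IV chains form the sheet of basement membranes, and type VI chains form beaded microfibrils. Transmembrane collagens stay anchored in the cell that makes them and can be shed. In mouse brain, type XIX collagen is made by interneurons and takes part in forming inhibitory synapses, and type XXV collagen, a neuronal transmembrane collagen, was first found as a component of amyloid plaques in Alzheimer's disease.

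The repeat itself is shown first, because it is what makes these genes one family. Below are the first 54 bases of the longest unbroken glycine-triplet run in the most abundant member of each class, from GENCODE M21 transcripts (GRCm38). Capitals mark the glycine codon (GGN) that opens each triplet.
Col25a1: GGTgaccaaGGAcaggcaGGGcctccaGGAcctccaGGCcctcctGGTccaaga
Col19a1: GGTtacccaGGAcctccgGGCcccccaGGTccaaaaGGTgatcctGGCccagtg
Col11a1: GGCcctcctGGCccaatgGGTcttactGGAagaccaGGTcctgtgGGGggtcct
Col6a1: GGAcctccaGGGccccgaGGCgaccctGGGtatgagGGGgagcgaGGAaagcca
Col4a2: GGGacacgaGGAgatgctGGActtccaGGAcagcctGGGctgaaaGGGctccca
Col15a1: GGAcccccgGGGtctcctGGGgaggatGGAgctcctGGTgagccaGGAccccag
Col26a1: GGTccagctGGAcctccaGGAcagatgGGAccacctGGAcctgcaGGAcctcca

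The genes lie at chr3:130131501-130599877 (plus strand, Col25a1), chr1:24261890-24587472 (minus, Col19a1), chr3:114030540-114220718 (plus, Col11a1), chr10:76708792-76726168 (minus, Col6a1), chr8:11312805-11449287 (plus, Col4a2), chr4:47208161-47313167 (plus, Col15a1) and chr5:136741759-136883209 (minus, Col26a1) in GRCm38. All 44 members had a coding sequence to read. The longest unbroken run was 216 to 344 triplets in the 11 fibrillar chains. In the other classes it was shorter, at 32 to 113 triplets in the FACIT chains, 39 to 66 in the network chains, 37 to 87 in the beaded-filament chains and 40 to 55 in the transmembrane collagens. Col12a1, Col14a1 and Col20a1 had the shortest of the FACIT chains, 32 triplets (in 3065 codons for Col12a1), whereas Col11a1 and Col5a1 each had 338.

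**Figure D1:**
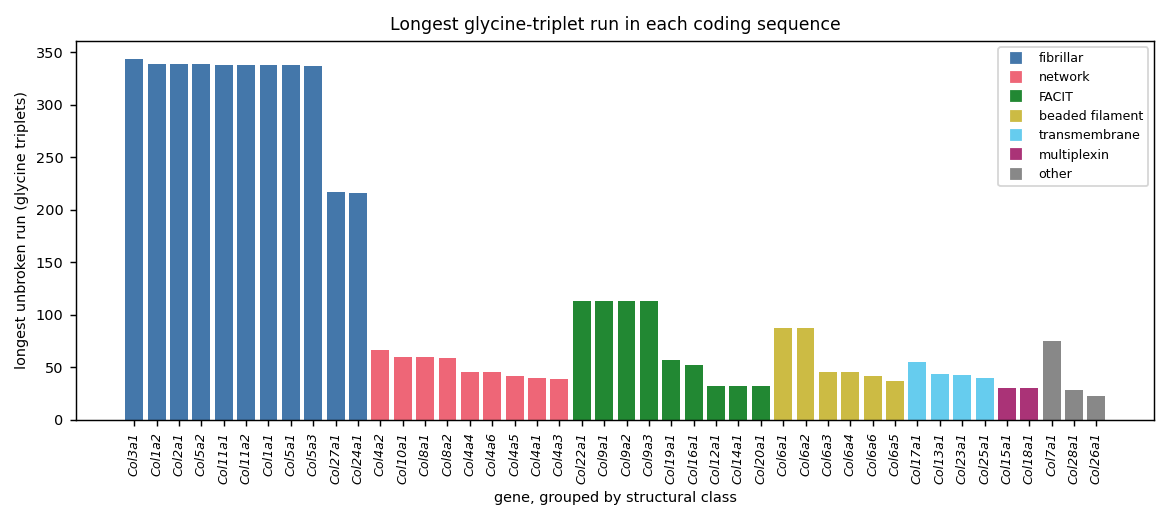
Longest unbroken run of glycine triplets (GGN codon followed by any 2 codons) in the longest complete coding sequence of each of the 44 collagen genes, coloured by class. The fibrillar chains reach 216 to 344 triplets and every other class stays at or below 113.

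Libraries held 5116568 to 31984948 reads on genes, with intermediate CA1, ventral CA1 and dorsal DG the shallowest, at up to 10393158 reads. Levels are given as CPM, counts scaled to the library total, with TMM library scaling. They compare 1 gene between populations. Sums, shares and thresholds in CPM favour long transcripts, and levels are compared per length between genes only with the deposited FPKM values. The labelled identities were checked against Gad1, Gad2 and Slc32a1, whose summed level was 4210 to 6180 CPM in the interneuron libraries and at most 0.460 CPM in CA3. It was 88.5 to 107 CPM in dorsal DG and 41.9 to 63.0 CPM in ventral DG libraries. Some pyramidal libraries also carried these interneuron genes, with 151 to 696 CPM in deep CA1, 125.3 CPM in proximal library 1, 141 CPM in superficial library 3, 73.9 CPM in accumbens-projecting library 3 and 63.1 CPM in postsubiculum-projecting library 2. Their part in the collagen values was not tested. The counting strand is not given in the sources used here, and 13 members share exon sequence with another gene in GENCODE M21, so reads from those stretches cannot be told apart.

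Most collagen genes were quiet in most of these neurons. Of the 44 members, 12 reached a mean of 10 CPM in some population, 37 reached 1 CPM, and 7 stayed below 1 CPM in every population. At least 10 reads in all 3 libraries of some population were found for 21 members. Only Col25a1, Col4a1, Col4a2 and Col20a1 had reads in all 48 libraries. For 7 members, a single library held over 50% of the CPM summed over all 48 libraries. The summed collagen level was highest in SST cells (364 ± 55.2 CPM), ventral DG (360 ± 69.2 CPM) and PV cells (313 ± 75.2 CPM), and lowest in superficial CA1 (79.9 ± 6.96 CPM; SD, n = 3 each). A few genes made up most of each sum, and they differed by population. Col25a1 held 65.3% of it in ventral DG, Col25a1 and Col19a1 held 46.1% and 42.9% in SST cells, Col11a1 held 39.4% in deep CA1 and Col12a1 held 36.9% in ventral CA3. In a test for any difference among the 16 populations (edgeR's quasi-likelihood test with Benjamini-Hochberg adjustment over all genes tested, called under 0.05), 32 of the 38 members that passed the low-count filter were called, beside 65.3% of all 17918 genes tested. DESeq2 called 18 of 44 members, beside 11352 of all 26742 genes. Libraries thinned to equal depth gave 20 of the 27 members that then passed the filter, beside 9191 of all 15168 genes. Leaving out replicate 1, 2 or 3 of every population gave 17 to 22 called members. The 6 tested members that were not called were Col6a4, Col7a1, Col10a1, Col11a2, Col18a1 and Col20a1.

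**Figure D2:**
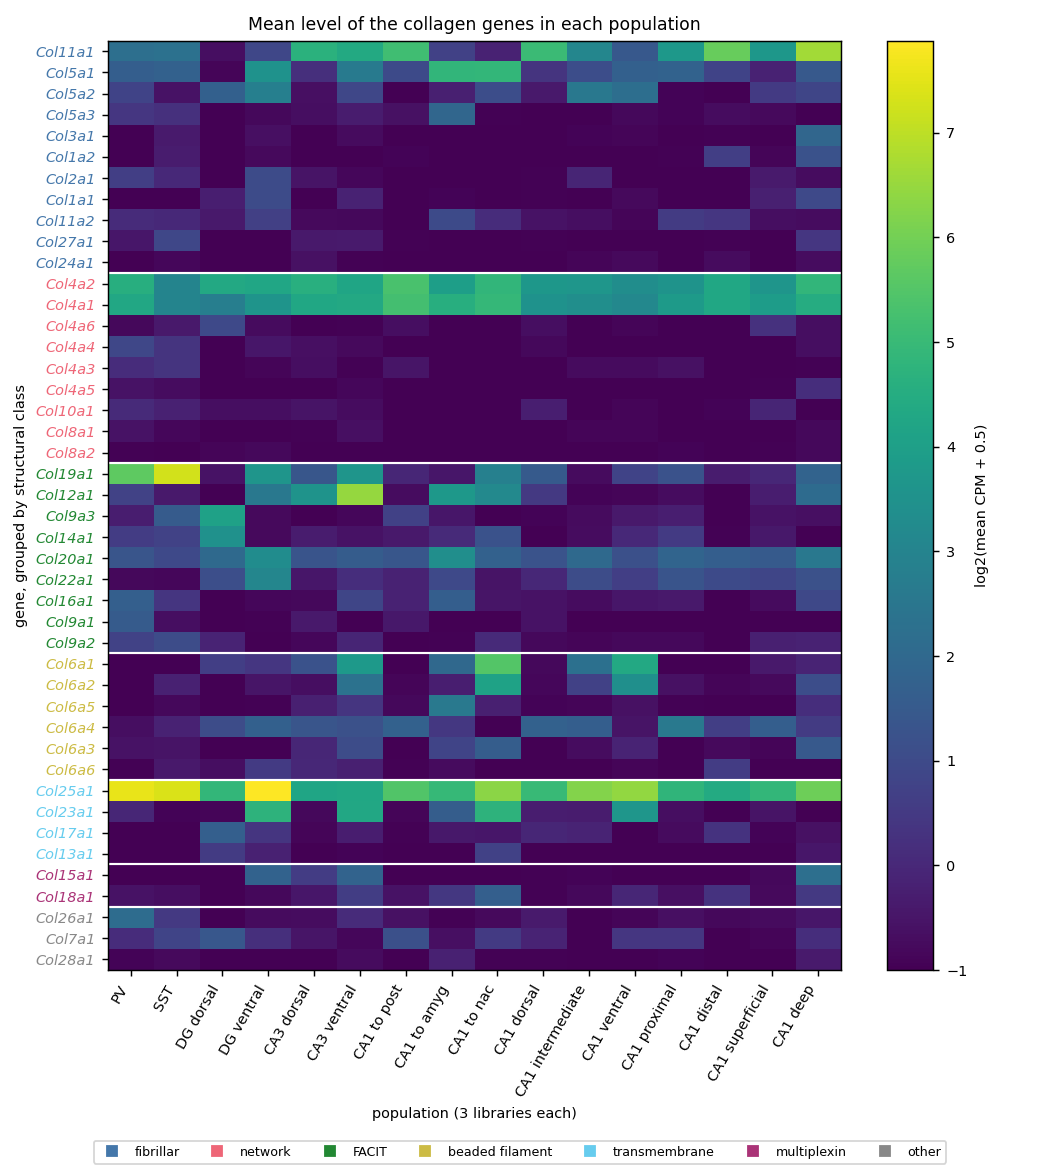
Mean level of each collagen gene (rows, grouped by structural class) in each of the 16 populations (columns, 3 libraries each), as log2 of mean CPM plus 0.5. Col25a1, Col4a1 and Col4a2 are above 1 CPM in all 16 columns, while most rows are bright in a few columns only.

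Col25a1, the neuronal transmembrane collagen, had the highest population mean of all members, in FPKM (44.6, ventral DG) as in CPM, and was above 1 CPM in every population. Its libraries measured 212, 191 and 302 CPM in ventral DG, 285, 105 and 177 CPM in PV cells and 155, 173 and 174 CPM in SST cells. Every SST library exceeded every library of the next populations down, ventral CA1 (113, 69.1 and 74.3 CPM), accumbens-projecting (88.1, 138 and 13.2 CPM) and intermediate CA1 (61.8, 80.9 and 81.6 CPM). The order then ran through deep CA1 (60.5 CPM), postsubiculum-projecting (43.9 CPM), dorsal CA1 (30.9 CPM), amygdala-projecting (30.1 CPM), dorsal DG (29.1 CPM), superficial (28.7 CPM), proximal (27.8 CPM) and distal CA1 (21.1 CPM) to ventral CA3 (19.1 CPM) and dorsal CA3 (18.2 CPM). Of the 15 neighbouring pairs in that order, 13 had overlapping libraries. Col23a1, another transmembrane collagen, was high in fewer populations, and these were ventral. It measured 8.43, 63.4 and 6.48 CPM in accumbens-projecting cells, 20.1, 29.8 and 28.4 CPM in ventral DG, 16.5, 17.8 and 23.7 CPM in ventral CA3 and 22.3, 6.97 and 7.05 CPM in ventral CA1. These 4 populations overlapped one another and all lay above the amygdala-projecting cells (2.91, 4.01 and 0.878 CPM). The other 11 population means were at most 0.472 CPM (PV cells).

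Col19a1, the FACIT chain known from interneurons, measured 139, 109 and 220 CPM in SST cells and 18.7, 51.3 and 83.3 CPM in PV cells. The SST libraries lay above the PV libraries, and both lay above ventral DG (6.59, 17.2 and 12 CPM) and ventral CA3 (7.48, 10.1 and 18 CPM). In some CA1 pyramidal populations a single library held most of the mean. Accumbens-projecting library 3 had 20.2 CPM against 0.0581 and 0 CPM in the other two, and the interneuron peptide gene Sst measured 516 CPM in the same library against 5.75 and 0.367 CPM. Deep library 1 had 8.26 CPM of Col19a1 and 117 CPM of Sst, and proximal library 1 had 5.45 CPM of Col19a1 and 81.3 CPM of Pvalb, each the highest of its population for both genes. The summed level of Gad1, Gad2 and Slc32a1 was highest in the same accumbens-projecting and proximal libraries. In deep library 1 that sum was the lowest of its population, at 151 against 441 and 696 CPM. The part of interneuron RNA in these Col19a1 values was not tested. Col12a1, a FACIT chain of fibril surfaces, was highest in ventral CA3 at 44.5, 59.8 and 160 CPM, above all libraries of every other population. It was next highest in amygdala-projecting cells (18.4, 15.3 and 4.34 CPM), dorsal CA3 (6.48, 19.1 and 8.58 CPM), accumbens-projecting cells (1.10, 0.0734 and 24.6 CPM) and ventral DG (2.23, 7.62 and 6.17 CPM). It had no read in dorsal DG or distal CA1.

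Some FACIT means rest on 1 library. Col9a3 had 48.9 CPM in dorsal DG library 3 and no read in dorsal DG libraries 1 and 2, and its exons share up to 234 bases with Tcfl5 on the opposite strand. Col14a1 had 32.1 CPM in dorsal DG library 2 and no read in the other two dorsal DG libraries. Col9a1 had 7.20 CPM in PV library 3 and none in the other PV libraries. Col20a1 was low but even, with population means at or above 1 CPM everywhere and its highest means in amygdala-projecting cells (3.81, 10.9 and 15.2 CPM) and ventral DG (8.43, 12 and 8.05 CPM). By FPKM, PV cells were highest (2.72 FPKM) and amygdala-projecting cells were 8th, with Spearman's rho of 0.397 between both scales over the populations, and 79 bases of its exons lie in another gene on the same strand. Col22a1 was highest in ventral DG (2.46, 9.20 and 11.9 CPM).

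Col11a1 had the highest FPKM of the fibrillar chains (34.0 FPKM, deep CA1). Its libraries measured 151, 97.1 and 48.2 CPM in deep CA1, 48.7, 53.3 and 66.4 CPM in distal CA1, 32.6, 30.9 and 41.5 CPM in postsubiculum-projecting cells, 39.9, 18 and 39.1 CPM in dorsal CA1 and 34.7, 19.4 and 21.5 CPM in dorsal CA3. Deep and distal libraries overlapped, and every distal library exceeded every postsubiculum-projecting library. Ventral CA3 held 31.4, 27.0 and 3.06 CPM, so library 3 lay far below the other two. The lowest means were in ventral CA1 (2.23 CPM), ventral DG (1.37 CPM), amygdala-projecting (1.16 CPM), accumbens-projecting (0.391 CPM) and dorsal DG cells (0.133 CPM). Col5a1, a chain of the type V fibrils that set fibril diameter, was highest in other populations. It measured 25.1, 29.6 and 32.6 CPM in accumbens-projecting cells and 34.6, 16.8 and 33.3 CPM in amygdala-projecting cells, each above ventral DG (15.2, 7.49 and 9.99 CPM), and it was lowest in dorsal DG (0.126, 0 and 0 CPM). Its exons overlap 2 genes on the opposite strand, by up to 113 bases. Its partner chain Col5a2 was highest in ventral DG at 6.81, 7.42 and 5.82 CPM. Col1a1, Col1a2 and Col3a1, the major fibril chains of connective tissue, were near zero except in single libraries. Deep library 2 had 9.86 CPM of Col3a1, 5.46 CPM of Col1a2 and 4.32 CPM of Col1a1, against 0 to 0.0640 CPM in the other 2 deep libraries. The same library had the highest deep values of the multiplexin Col15a1 (11.6 CPM) and Col12a1 (10.8 CPM), and of the fibroblast and meningeal markers Igf2 (54.2 CPM) and Dcn (15 CPM).

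Col4a1 and Col4a2, whose chains wind together into the main basement membrane molecule, were broad rather than restricted. Both were highest in postsubiculum-projecting cells, with 53.0, 31.7 and 25.7 CPM of Col4a1 and 37.8, 28.4 and 53.5 CPM of Col4a2. Their lowest means were 6.44 CPM in dorsal DG for Col4a1 and 7.54 CPM in SST cells for Col4a2, and no neighbouring pair of populations was separated in either order. The remaining type IV chains did not exceed a mean of 1.45 CPM (Col4a6, dorsal DG). Vessel cells also make type IV collagen, so their markers are given here. The levels of 8 endothelial markers summed to at most 11.6 CPM per library outside the amygdala-projecting (52.9 to 100 CPM) and accumbens-projecting libraries (12.2 to 56.2 CPM). In those, the sum was mostly Kdr (31.3 to 96.2 CPM and 10.9 to 53.7 CPM), 4 of the 8 reached 1 CPM in an amygdala-projecting and 3 in an accumbens-projecting library, and 4 had no read in each, among them Cldn5, a defining tight-junction gene of brain endothelium. The sum of 8 mural markers was 1.66 to 5.06 CPM in postsubiculum-projecting, 3.14 to 136.6 CPM in accumbens-projecting, 28.4 to 120.2 CPM in deep and 3.04 to 14.3 CPM in amygdala-projecting libraries, the populations highest in Col4a1. Their part in the type IV values was not tested.

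The start regions of this pair are shown because both genes rose together in a comparison below. Col4a1 and Col4a2 are transcribed away from each other, and their RefSeq promoter windows (250 bases before to 50 after the start, GRCm38.p6) overlap by 78 bases, given in capitals. Col4a1 lies on the minus strand at chr8:11312777-11313076 and Col4a2 on the plus strand at chr8:11312555-11312854.
Col4a1: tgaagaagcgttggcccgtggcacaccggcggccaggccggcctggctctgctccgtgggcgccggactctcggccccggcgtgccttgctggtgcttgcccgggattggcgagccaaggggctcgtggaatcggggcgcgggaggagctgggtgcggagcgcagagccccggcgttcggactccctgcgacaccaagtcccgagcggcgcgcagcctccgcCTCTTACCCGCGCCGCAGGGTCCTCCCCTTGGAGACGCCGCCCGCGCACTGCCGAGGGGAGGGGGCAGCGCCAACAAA
Col4a2: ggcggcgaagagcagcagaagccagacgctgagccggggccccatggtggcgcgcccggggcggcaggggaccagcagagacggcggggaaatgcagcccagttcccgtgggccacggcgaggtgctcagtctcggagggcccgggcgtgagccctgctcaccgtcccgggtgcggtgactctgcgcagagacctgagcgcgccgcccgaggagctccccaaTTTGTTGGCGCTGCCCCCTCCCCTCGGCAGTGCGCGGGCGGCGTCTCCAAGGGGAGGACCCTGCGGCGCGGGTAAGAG

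On both strands, the GC-box letters GGGCGG matched 1 time in the Col4a1 window and 3 times in the Col4a2 window, and they occur in 35.7% of all 32851 promoter windows. The letters CCAAT matched 1 time in each (37.4% of all windows) and TATAAA in neither (13.6%). No matches of different motifs overlapped in these windows. Of the 38 windows of 35 collagen genes in the table, 23 held GGGCGG, 13 held CCAAT and 5 held TATAAA. The annotated exons of Col4a1 and Col4a2 share 22 bases on opposite strands.

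Of the 6 type VI chains, which form beaded microfibrils, Col6a1 and Col6a2 had their 3 highest means in accumbens-projecting cells, ventral CA1 and ventral CA3. Col6a4 was placed otherwise, at 7.41, 8.3 and 0.63 CPM in proximal CA1 and no read in accumbens-projecting cells. Col6a1 measured 65.4, 47.4 and 21.0 CPM in accumbens-projecting cells, 38.3, 11.9 and 9.70 CPM in ventral CA1 and 17.9, 12.1 and 10.6 CPM in ventral CA3. It had no read in any library of PV, SST, postsubiculum-projecting, proximal or distal cells. Col6a2 followed with 14.6, 33.3 and 2.51 CPM in accumbens-projecting cells, 19.6, 9.90 and 1.5 CPM in ventral CA1 and 6.10, 4.49 and 3.17 CPM in ventral CA3. Col6a3, whose chain completes the classic type VI molecule, was highest in accumbens-projecting cells too, but almost all of it lay in library 3 (0.0581, 0 and 7.58 CPM). Dcn, the collagen-binding proteoglycan decorin and a fibroblast marker, was high in some of the same populations, at 189 to 525 CPM in accumbens-projecting cells, 251 to 408 CPM in ventral CA1 and 65.3 to 251 CPM in amygdala-projecting cells. The 8-gene fibroblast list it belongs to summed to 189 to 530 CPM, 258 to 417 CPM and 65.8 to 256 CPM there, and 6, 4 and 5 of its genes had no read. Dcn was at most 0.160 CPM in ventral CA3, where Col6a1 was high, and Foxc1, a defining meningeal gene, was at 0 in ventral CA1 and accumbens-projecting cells. The part of such cells in these values was not tested. In such bulk libraries, fewer cells of a type and less RNA per cell cannot be told apart.

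**Figure D3:**
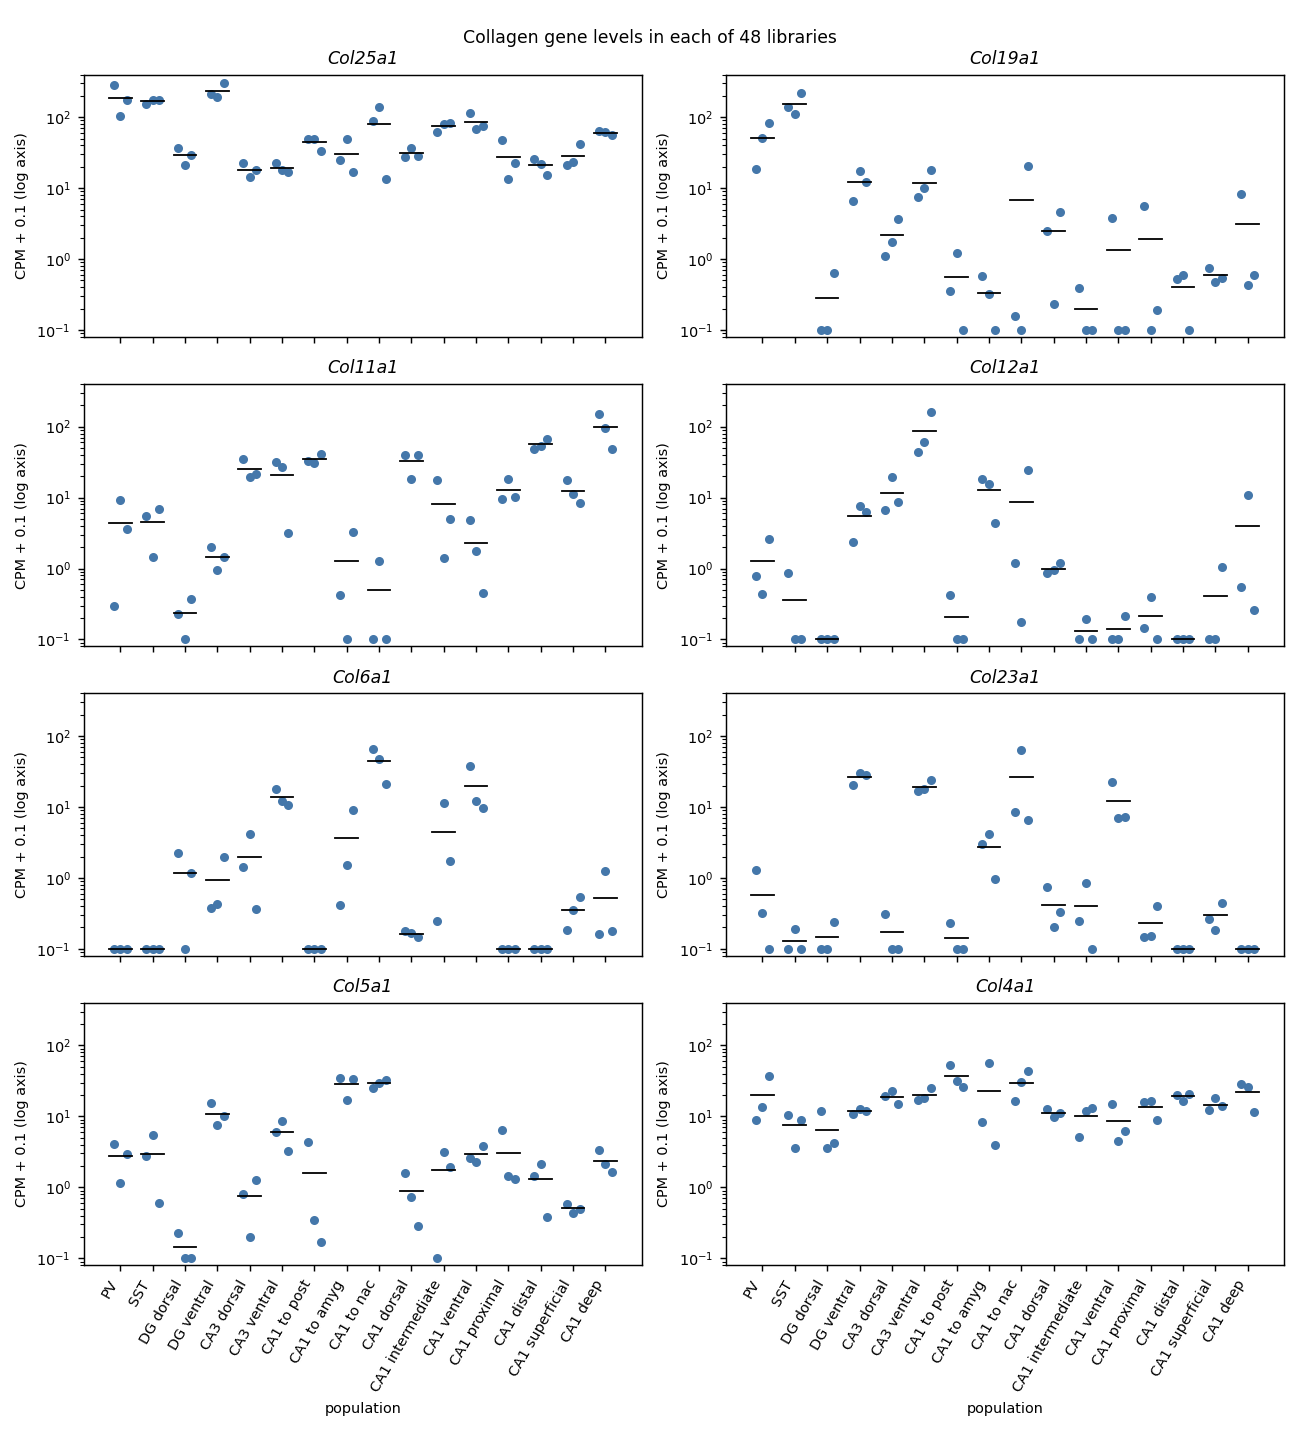
Level of 8 collagen genes in each of the 48 libraries, as CPM plus 0.1 on a log axis, by population. Dots are libraries and lines are means of 3. Col25a1 and Col4a1 are present everywhere, Col19a1 peaks in SST cells, Col12a1 in ventral CA3, Col11a1 in deep CA1 and Col6a1 in accumbens-projecting cells.

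Along the long axis of CA1, dorsal cells had more Col11a1 and less Col23a1, Col25a1, Col6a1 and Col6a2 than ventral cells. The long-axis fit held dorsal, intermediate and ventral CA1, and 12 of the 44 members passed its low-count filter. Dorsal over ventral, 1 was called higher and 5 lower, beside 7.17% higher and 7.95% lower among all genes tested (15.1% in all). The median log2 fold change of the 12 was -0.71, and that of all genes was -0.01. Col6a1, Col6a2 and Col23a1 were near 0 in dorsal cells and passed the filter on counts outside them. This median therefore does not measure a shift of the family. Col6a1 measured 0.0793, 0.0674 and 0.0455 CPM in dorsal and 38.3, 11.9 and 9.70 CPM in ventral libraries, a log2 fold change of -8.13 ± 1.29 (SE; adjusted p = 0.000625). The dorsal values are 5 reads in all, so the size of that fold is loose. Col6a2 was lower by a similar size (log2 fold change -7.20 ± 1.24, adjusted p = 0.000355). Col23a1 measured 0.635, 0.101 and 0.227 CPM in dorsal against 22.3, 6.97 and 7.05 CPM in ventral libraries (-5.25 ± 0.96, adjusted p = 0.000581). Col25a1 differed less, with a mean of 30.9 ± 5.11 CPM for dorsal against 85.6 ± 24.2 CPM for ventral libraries (-1.52 ± 0.21, adjusted p = 4.31e-05). Col11a1 went the other way, with a mean of 32.3 ± 12.4 CPM for dorsal against 2.23 ± 2.22 CPM for ventral libraries (log2 fold change 3.80 ± 1.01, adjusted p = 0.0314; SD, n = 3 each). Without dorsal library 1 or 3 or ventral library 2 or 3 the Col11a1 call was lost (adjusted p 0.0510 to 0.134), and with 1 estimate of spread over all 48 libraries the calls of Col11a1 and Col25a1 were lost. Col5a2 was also called lower, with overlapping libraries.

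Intermediate CA1 stood near the ventral end for Col25a1 and near the dorsal end for Col23a1. Intermediate over dorsal, 3 of the 12 members were called, all higher, beside 4.93% of all genes (3.24% higher and 1.69% lower). Col25a1 averaged 74.8 ± 11.3 CPM in intermediate and 30.9 ± 5.11 CPM in dorsal cells (log2 fold change 1.31 ± 0.21, adjusted p = 0.000835). Col6a1 measured 0.145, 11.1 and 1.61 CPM in intermediate against at most 0.0793 CPM in dorsal libraries (5.92 ± 1.24, adjusted p = 0.0144), and intermediate library 2 also held 63.4 CPM of Dcn against 2.17 and 7.83 CPM in the other two. Dcn was the only 1 of the 8 fibroblast and meningeal markers to reach 1 CPM in an intermediate library, and 4 had no read. The part of such cells in the Col6a1 values was not tested. The Col6a1 call was lost without dorsal library 1, 2 or 3 or intermediate library 2 (adjusted p 0.0543 to 0.112) and at equal depth. Col5a2 measured 1.45, 10.8 and 4.03 CPM in intermediate against 0.0793, 0.505 and 0.182 CPM in dorsal libraries (4.38 ± 1.06, adjusted p = 0.0196), a call lost without dorsal library 1 or 3 or intermediate library 2 (0.0876 to 0.170). Intermediate over ventral, Col23a1 alone was called, beside 5.03% of all genes (3.12% higher and 1.91% lower), at 0.145, 0.748 and 0 CPM in intermediate against 22.3, 6.97 and 7.05 CPM in ventral libraries (-5.23 ± 1.00, adjusted p = 0.00331). Without ventral library 1 that adjusted p was 0.0528. All 4 of these calls were lost with 1 estimate of spread over all 48 libraries. The comparisons along this axis share libraries.

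Across the transverse and the radial axis, Col11a1 was the only member called. Proximal over distal, 1 of 9 members passing the filter was called, beside 1.06% of all genes (0.818% higher and 0.244% lower). Col11a1 measured 9.56, 18.5 and 10.3 CPM in proximal and 48.7, 53.3 and 66.4 CPM in distal libraries (log2 fold change -2.11 ± 0.33, adjusted p = 0.0115). The call was lost without proximal library 3 or any distal library (adjusted p 0.0505 to 0.0695). Superficial over deep, again 1 of 9 was called, beside 2.48% of all genes (0.886% higher and 1.60% lower). Col11a1 measured 17.7, 11.1 and 8.19 CPM in superficial and 151, 97.1 and 48.2 CPM in deep libraries (-3.04 ± 0.41, adjusted p = 0.00273), and the call held without each library in turn. The interneuron markers Gad1, Gad2 and Slc32a1 summed to 14.8 to 141 CPM in superficial libraries. In deep libraries 1, 2 and 3 they summed to 151, 441 and 696 CPM, the reverse of the order of Col11a1. Mural markers summed to 5.28 to 12.9 CPM in superficial libraries. In deep libraries 1, 2 and 3 they summed to 120.2, 28.4 and 45.1 CPM. They were highest in library 1, as was Col11a1, but did not follow its order in libraries 2 and 3. Col11a1 averaged 4.48 CPM in SST and 4.27 CPM in PV cells. The part of such cells in the difference was not tested. Both calls were lost with 1 estimate of spread over all 48 libraries.

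Ventral cells that were selected by their target had more Col5a1 than ventral CA1 cells in general. Col5a1 measured 34.6, 16.8 and 33.3 CPM in amygdala-projecting against 2.53, 2.20 and 3.70 CPM in ventral libraries (log2 fold change 3.32 ± 0.59, adjusted p = 0.00618). It measured 25.1, 29.6 and 32.6 CPM in accumbens-projecting cells against the same ventral libraries (3.38 ± 0.59, adjusted p = 0.00698). It was the only member of 17 called in either comparison, beside 2.38% of all genes (1.59% higher and 0.786% lower) for amygdala-projecting and 2.04% (1.49% higher and 0.555% lower) for accumbens-projecting over ventral cells. The amygdala-projecting call was lost without ventral library 1 or 2 (adjusted p 0.0528 to 0.0576), as was the accumbens-projecting one (0.0633 to 0.0750), and both were lost in the fit of all 48 libraries. Kdr, an endothelial marker, was at 31.3 to 96.2 CPM in amygdala-projecting, 10.9 to 53.7 CPM in accumbens-projecting and 0 to 3.35 CPM in ventral libraries, while Cldn5 was at 0 in all of them. Their part in the Col5a1 values was not tested.

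Between both projection classes no collagen gene was called. Amygdala-projecting over accumbens-projecting, 0 of 17 members passed edgeR's quasi-likelihood test, beside 0.0231% of all genes, although 4 had an unadjusted p under 0.05 and DESeq2 called 2. The 4 were Col6a1, Col6a2, Col23a1 and Col25a1, all with lower means in amygdala-projecting cells. For Col6a1 the mean was 3.54 ± 4.66 CPM among amygdala-projecting libraries, against 44.6 ± 22.3 CPM among accumbens-projecting ones (log2 fold change -3.64, adjusted p = 0.337). The libraries did not overlap for Col6a1, Col6a2 and Col23a1.

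Dorsal cells that project to the postsubiculum had more of both basement membrane chains than dorsal CA1 cells in general. Of 11 members passing the filter, Col4a1 and Col4a2 were called higher and none lower, beside 10.8% of all genes (5.24% higher and 5.59% lower). Col4a1 measured 53.0, 31.7 and 25.7 CPM in postsubiculum-projecting against 12.5, 9.57 and 10.9 CPM in dorsal libraries (log2 fold change 1.77 ± 0.36, adjusted p = 0.0109). Col4a2 measured 37.8, 28.4 and 53.5 CPM in postsubiculum-projecting against 17.4, 10.7 and 9.55 CPM in dorsal libraries (1.69 ± 0.37, adjusted p = 0.0145). The Col4a1 call was lost without dorsal library 2 or 3 (adjusted p 0.0552 to 0.0725), and the Col4a2 call without either of these or postsubiculum-projecting library 3 (0.0504 to 0.0879). Both were lost in the fit of all 48 libraries. Endothelial markers summed to 0 to 2.00 CPM in postsubiculum-projecting and 0 to 1.36 CPM in dorsal libraries.

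In CA3, Col6a2 and Col23a1 were lower at the dorsal pole, and Col12a1 was too. Dorsal over ventral CA3, 3 of 23 members were called, all lower, beside 4.97% of all genes (2.50% higher and 2.48% lower). The median log2 fold change of the 23 was -1.58 and that of all genes -0.04. Members could pass the filter on ventral cells alone, as for Col23a1, so this median does not measure a shift of the family. Col12a1 measured 6.48, 19.1 and 8.58 CPM in dorsal and 44.5, 59.8 and 160 CPM in ventral CA3 (-2.93 ± 0.58, adjusted p = 0.00386), a call lost without ventral library 3 (adjusted p = 0.0716). Col23a1 measured 0.214, 0 and 0 CPM in dorsal and 16.5, 17.8 and 23.7 CPM in ventral CA3 (-7.97 ± 1.00, adjusted p = 2.20e-05). Col6a2 measured 0.161, 0.193 and 0.0523 CPM in dorsal and 6.10, 4.49 and 3.17 CPM in ventral CA3 (-4.99 ± 1.11, adjusted p = 0.0102). The Col6a2 call was lost without dorsal library 3 (adjusted p = 0.0735) and at equal depth. In the fit of all 48 libraries only the Col23a1 call of these held.

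In the dentate gyrus, dorsal granule cells had less of 6 collagen genes than ventral ones, with no overlap between libraries. Dorsal over ventral DG, 8 of 23 members were called, 1 higher and 7 lower, beside 8.71% higher and 10.6% lower among all genes (19.4% in all). Col5a1, Col11a1, Col12a1 and Col23a1 had at most 3 reads each in dorsal DG and passed the filter on counts outside it. The split into higher and lower therefore does not measure a shift of the family. Col25a1 measured 36.9, 21.2 and 29.2 CPM in dorsal and 212, 191 and 302 CPM in ventral DG (log2 fold change -2.98 ± 0.28, adjusted p = 3.45e-07). Col23a1 had 1 read in dorsal DG against 20.1, 29.8 and 28.4 CPM in ventral DG (adjusted p = 1.64e-05), and its ventral-to-dorsal ratio had a 95% interval of 105 to 23179 that covers counting error only. Col5a1 likewise had 1 dorsal read against 15.2, 7.49 and 9.99 CPM in ventral DG (adjusted p = 0.000303; ratio 44.9 to 9929). Col12a1 had no read in dorsal DG and 2.23, 7.62 and 6.17 CPM in ventral DG, at least 13.4-fold lower in dorsal DG at a floor of 3 counts per library (adjusted p = 6.67e-05). Col19a1 measured 0, 0 and 0.545 CPM in dorsal and 6.59, 17.2 and 12 CPM in ventral DG (-5.98 ± 1.58, adjusted p = 0.0116). Col11a1 had 3 reads in dorsal DG against 1.90, 0.854 and 1.37 CPM in ventral DG (adjusted p = 0.0427; ratio 3.48 to 52.6). Its call was lost without ventral CA1 library 2 or any DG library (adjusted p 0.0515 to 0.116). The Col11a1 and Col19a1 calls were lost in the fit of all 48 libraries. Col14a1, called higher, and Col15a1, called lower, each rested on 1 library, Col14a1 on dorsal library 2 (32.1 CPM) and Col15a1 on ventral library 3 (8.39 CPM). Dorsal DG was shallow, at 6778469 to 7851916 reads against 14761798 to 16469376 reads in ventral DG. The 8 fibroblast and meningeal markers summed to 4.36 to 16.2 CPM in dorsal and 89.4 to 138.3 CPM in ventral DG. In each of these populations, 3 of the 8 reached 1 CPM in a library and 4 had no read. Their part in these differences was not tested.

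The long-axis difference itself differed between regions for some members. Between CA3 and CA1, 2 of 23 members were called, Col12a1 and Col25a1, beside 3.52% of all genes (2.21% with a positive and 1.31% with a negative difference). Between DG and CA1, 7 of 23 were called, beside 9.71% of all genes (4.62% with a positive and 5.09% with a negative difference). The 7 were Col5a1, Col6a1, Col11a1, Col12a1, Col14a1, Col19a1 and Col25a1. Col6a1 was 1.08 CPM in dorsal DG and 0.831 CPM in ventral DG, whereas it was 0.0641 CPM in dorsal CA1 and 20.0 CPM in ventral CA1. Col11a1 was lower in dorsal than in ventral DG and higher in dorsal than in ventral CA1. For Col23a1, which was lower dorsally in all 3 regions, the adjusted p of the difference was 0.329 between CA3 and CA1 and 0.123 between DG and CA1.

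Between regions, Col12a1 and Col15a1 were higher in CA3 than in dorsal and ventral CA1, and Col25a1 was lower. The fit held dorsal and ventral cells of CA1, CA3 and DG, and each region's poles were averaged with equal weight. CA3 over CA1, 3 of 23 members were called, 2 higher and 1 lower, beside 8.15% higher and 5.34% lower (13.5% in all). Col12a1 ranged from 6.48 to 160 CPM in the 6 CA3 libraries and from 0 to 1.09 CPM in the 6 CA1 libraries (log2 fold change 7.19 ± 0.59, adjusted p = 3.99e-08). Col25a1 ranged from 14.1 to 22.8 CPM in CA3 and from 27.3 to 113 CPM in CA1 (-1.47 ± 0.19, adjusted p = 7.10e-06). Col15a1, whose C-terminal part is an endostatin-like domain, ranged from 0.107 to 6.30 CPM in CA3 and had a single read in the 6 CA1 libraries of the fit (adjusted p = 0.0105; ratio 40.8 to 9078). Its highest mean was in deep CA1, outside that fit, at 1.28, 11.6 and 0 CPM. These 3 calls held without each library in turn and in the fit of all 48 libraries.

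Granule cells had almost no Col11a1. DG over CA3, 10 of 23 members were called, 4 higher and 6 lower, beside 16.9% higher and 19.6% lower (36.5% in all). Only 2 of them had separate libraries. Col11a1 ranged from 0 to 1.90 CPM in DG and from 3.06 to 34.7 CPM in CA3 (log2 fold change -5.69 ± 0.67, adjusted p = 1.03e-06). Col4a1 ranged from 3.53 to 12.4 CPM in DG and from 15 to 25.0 CPM in CA3 (-1.16 ± 0.35, adjusted p = 0.0123), a call lost at equal depth. DG over CA1, 4 of 23 were called, Col20a1 and Col25a1 higher and Col11a1 and Col6a2 lower, beside 15.7% higher and 17.4% lower (33.1% in all), and all 4 had overlapping libraries.

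Interneurons shared high Col25a1 and Col19a1 and low Col11a1 relative to dorsal CA1 pyramidal cells. The fit held PV, SST and dorsal CA1 libraries, and 22 members passed its filter. PV over dorsal CA1, 4 were called higher and 1 lower, beside 16.3% higher and 13.4% lower among all genes (29.7% in all). SST over dorsal CA1, 3 were called higher and 1 lower, beside 15.6% higher and 11.9% lower (27.4% in all). Col25a1 averaged 189 ± 90.5 CPM in PV cells (log2 fold change 2.65 ± 0.32, adjusted p = 5.55e-05) and 168 ± 10.7 CPM in SST cells (2.46 ± 0.32, adjusted p = 0.000110), against 30.9 ± 5.11 CPM in dorsal CA1. Col19a1 averaged 51.1 ± 32.3 CPM in PV cells (4.48 ± 0.84, adjusted p = 0.00151) and 156 ± 57.0 CPM in SST cells (6.09 ± 0.90, adjusted p = 0.000316), against 2.35 ± 2.18 CPM in dorsal CA1. Col11a1 measured 0.199, 9.07 and 3.52 CPM in PV and 5.38, 1.33 and 6.74 CPM in SST libraries, against 39.9, 18 and 39.1 CPM in dorsal CA1 (adjusted p = 0.0377 for PV and 0.0450 for SST). The PV call of Col11a1 was lost without PV library 3 or dorsal library 1 or 3 (adjusted p 0.0942 to 0.102), and the SST call without PV library 3, any SST library or any dorsal library (0.0555 to 0.118).

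The smaller interneuron collagens were Col26a1 and Col14a1. Col26a1 measured 4.78, 2.40 and 4.62 CPM in PV cells and 0.317, 0.505 and 0.0455 CPM in dorsal CA1 (log2 fold change 3.76 ± 1.22, adjusted p = 0.0347). It was above 1 CPM in no other population. The Col26a1 call was lost without PV library 1 or 3, SST library 1 or any dorsal library (adjusted p 0.0517 to 0.124) and at equal depth. Col14a1 measured 0.549, 1.24 and 1.77 CPM in SST cells and had no read in dorsal CA1, at least 9.98-fold higher in SST cells (adjusted p = 0.0199), a call lost without any 1 dorsal library (0.0669 to 0.0726). The fourth member called higher in PV cells was Col14a1 as well, at a mean of 0.993 CPM. In the fit of all 48 libraries, the calls of Col11a1 and Col26a1, the SST call of Col14a1 and the PV call of Col19a1 were lost. Without the low-count filter, those of Col11a1 and Col26a1 were lost. Microglial markers summed to 29.1 to 68.2 CPM in SST libraries and 0.397 to 1.23 CPM in dorsal CA1, and oligodendrocyte markers reached 722 CPM in SST library 2. Their part in these values was not tested.

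PV over SST, 0 of 22 members were called by edgeR's quasi-likelihood test, beside 6.15% of all genes. DESeq2 called 1, and 3 had an unadjusted p under 0.05. These were Col19a1, at 18.7, 51.3 and 83.3 CPM in PV and 139, 109 and 220 CPM in SST libraries (log2 fold change -1.62, adjusted p = 0.240), Col4a1 (1.37, adjusted p = 0.214) and Col4a2, at 22.9 ± 10.02 CPM in PV and 7.54 ± 2.77 CPM in SST cells (1.60, adjusted p = 0.0791). Col19a1 and Col4a2 had separate libraries.

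**Figure D4:**
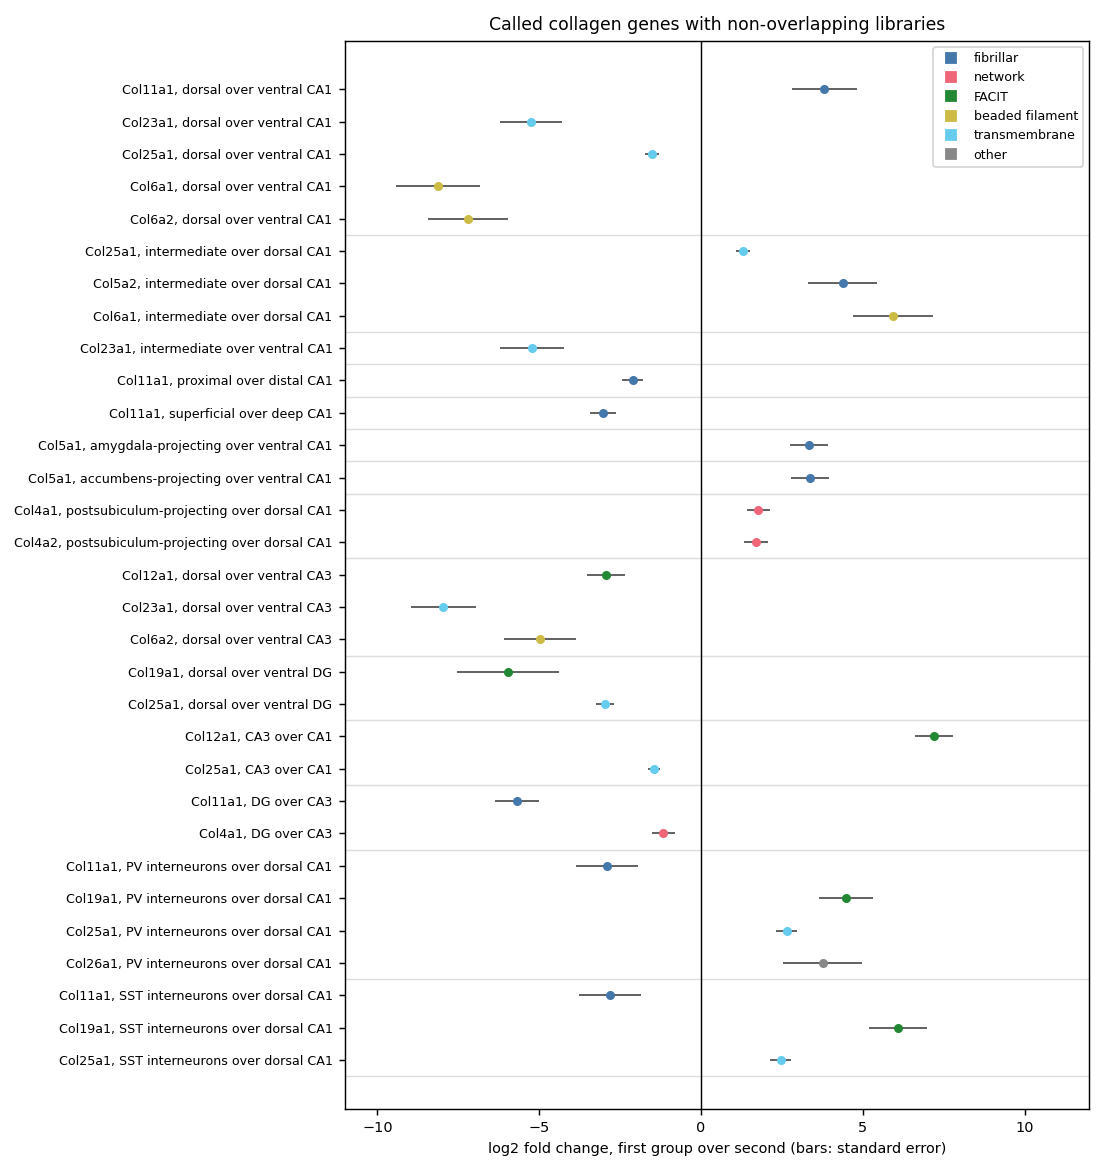
Log2 fold changes (first group over second, bars are standard errors) of 31 contrasts in which a collagen gene was called, libraries did not overlap, the higher group averaged at least 1 CPM and both groups held more than 3 reads. Points left of 0 are lower in the first group, as for Col6a1, Col6a2 and Col23a1 in dorsal over ventral CA1.

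Chains of one molecule tracked each other in some pairs and not in others. Over the 16 population means, on log2 of CPM plus 0.5, Pearson's r was 0.88 for Col6a1 and Col6a2 (Spearman's rho 0.68), 0.74 for Col4a1 and Col4a2 (0.66) and 0.64 for Col6a1 and Col6a3 (0.56). It was 0.15 for Col5a1 and Col5a2 (0.25) and -0.41 for Col11a1 and Col11a2 (-0.43). These are descriptions over means that share library scaling. Over the 48 single libraries r was 0.82 for Col6a1 and Col6a2, 0.51 for Col4a1 and Col4a2 and 0.31 for Col6a1 and Col6a3. For Col4a3 and Col4a4, with population means of at most 1.34 CPM, r was 0.83 over the means and 0.30 over the libraries. Per length, in the population where the first chain was highest, Col4a1 and Col4a2 were near each other at 5.66 and 7.26 FPKM. Col6a1, Col6a2 and Col6a3 were at 12.8, 4.90 and 2.51 FPKM, and Col5a1 was at 6.31 FPKM beside 0.599 FPKM of Col5a2. Col11a1 was at 34.0 FPKM beside 0.0760 FPKM of Col11a2. By FPKM the most abundant members were Col25a1 (44.6 FPKM, ventral DG), Col19a1 (35.2 FPKM, SST cells) and Col11a1 (34.0 FPKM, deep CA1). The population with the highest CPM was also the highest by FPKM for 11 of the 12 most abundant members, all but Col9a3.

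**Figure D5:**
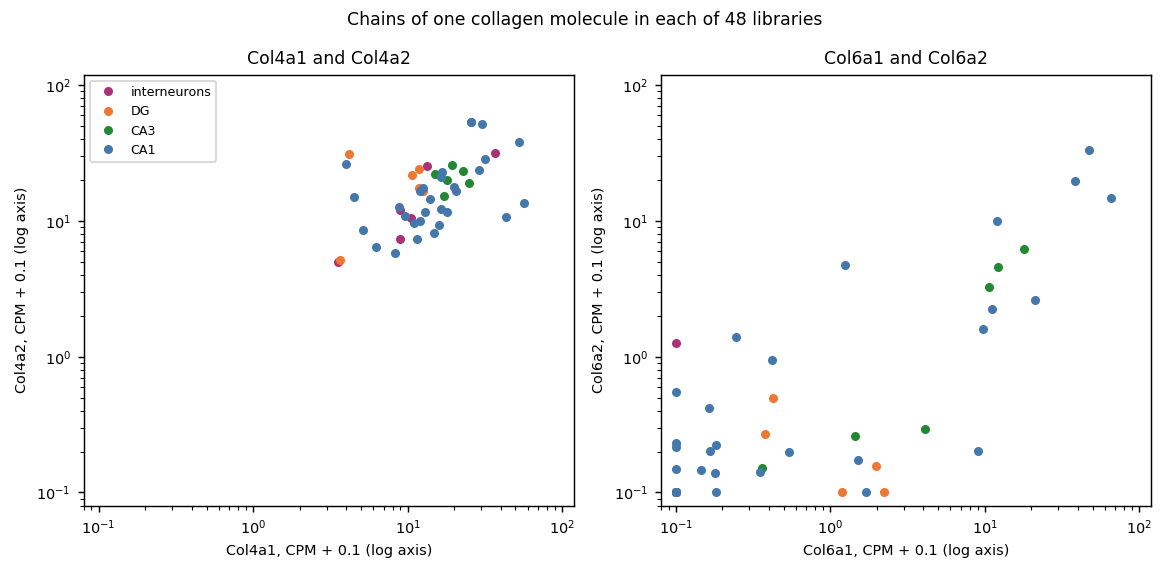
Levels of Col4a1 and Col4a2 (left) and of Col6a1 and Col6a2 (right) in each of the 48 libraries, as CPM plus 0.1 on log axes, coloured by region. The type IV pair forms 1 cloud from 3.44 to 56.9 CPM of Col4a1, whereas the type VI pair spreads from libraries with no read to accumbens-projecting libraries at 21.0 to 65.4 CPM of Col6a1.

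The genes that fold, cross-link, bind and cut collagens are given by list, each count beside the share called among all genes. Of 31 genes for folding, processing and cross-linking, 18 were tested along the CA1 long axis, and dorsal over ventral 1 was called higher and 1 lower, beside 15.1% of all genes. The higher one was Bmp1, a procollagen C-proteinase, with 15.4 ± 1.67 CPM for dorsal against 6.48 ± 1.13 CPM for ventral libraries (log2 fold change 1.2, adjusted p = 0.0332). The lower one was Adamts2, a procollagen N-proteinase, with 0.993 ± 1.05 CPM for dorsal against 7.48 ± 3.98 CPM for ventral libraries (-2.96, adjusted p = 0.0129). Adamts3, another N-proteinase, averaged 62.8 ± 10.2 CPM in superficial and 17.4 ± 11.4 CPM in deep cells (1.81, adjusted p = 0.0404), the only 1 of 20 tested genes of that list called there, beside 2.48% of all genes. In interneurons the processing proteinase Tll1 averaged 85.8 ± 20.8 CPM in PV and 1.88 ± 1.44 CPM in SST cells (5.52, adjusted p = 0.000966), the only 1 of 23 called, beside 6.15% of all genes. In the dentate gyrus 2 of 25 were called higher and 1 lower dorsal over ventral, beside 19.4% of all genes, led by P4ha1, a subunit of collagen prolyl 4-hydroxylase, with 56.2 ± 11.2 CPM for dorsal against 25.6 ± 9.54 CPM for ventral DG (1.17, adjusted p = 0.00481).

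Among 12 collagen receptors, Adgrg1, an adhesion receptor that binds type III collagen in developing mouse cortex, was lower at the dorsal than at the ventral end of CA1. It averaged 0.330 ± 0.0916 CPM in dorsal and 16.8 ± 9.20 CPM in ventral CA1 (log2 fold change -5.67, adjusted p = 2.76e-06), and was the only 1 of 4 tested receptors called, beside 15.1% of all genes. Dorsal over ventral CA3, 0 of 8 receptors were called (4.97% of all genes), where Adgrg1 averaged 14.5 ± 1.93 CPM for dorsal against 29.6 ± 10.5 CPM for ventral CA3. It averaged 7.24 ± 4.24 CPM in intermediate CA1 (4.44 over dorsal, adjusted p = 0.000149). CA3 over CA1, 2 of 8 receptors were called higher and none lower, beside 8.15% higher and 5.34% lower, with Adgrg1 at 22.1 ± 10.7 CPM in CA3 and 8.58 ± 10.7 CPM in CA1 (3.11, adjusted p = 2.54e-05; SD over both poles, n = 6). That fold averages the poles on the log scale, where dorsal CA1 was near 0. The ventral CA1 mean of Adgrg1 lay above its dorsal CA3 mean. Its known ligand gene Col3a1 stayed at or below 0.275 CPM in every population mean except deep CA1. Of 5 collagenases, 1 was tested in the regional and interneuron fits and none was called, beside 4.97% to 36.5% of all genes in those comparisons.

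Of 16 laminin, nidogen, perlecan, agrin and Sparc genes of the basement membrane, 4 of 12 tested were called higher in CA3 than in CA1 and none lower, beside 8.15% higher and 5.34% lower among all genes, led by the laminin chain Lama2 at 5.17 ± 2.81 CPM in CA3 and 1.25 ± 1.33 CPM in CA1 (log2 fold change 3.62, adjusted p = 0.000120). Lama2 averaged 0.0548 CPM in dorsal and 2.44 CPM in ventral CA1, and its fold averages these poles on the log scale. Postsubiculum-projecting over dorsal CA1, where both type IV chains rose, 0 of 5 were called, beside 10.8% of all genes. Agrn, which organizes synapses at the neuromuscular junction, averaged 62.7 ± 14.7 CPM in PV cells (log2 fold change -1.2, adjusted p = 0.00411) and 58.5 ± 15 CPM in SST cells (-1.29, adjusted p = 0.00290), against 146 ± 19.1 CPM in dorsal CA1. Lamb1 averaged 103 ± 22.5 CPM in PV and 26.6 ± 11.3 CPM in SST cells (1.95, adjusted p = 0.00328), and Lama4 averaged 0.148 ± 0.224 CPM in PV and 17.6 ± 7.89 CPM in SST cells (-6.84, adjusted p = 0.0123). These lists were chosen with earlier results known.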

How the data were processed

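Per the labels' protocols, RNA of hand-sorted fluorescent neurons was extracted with a PicoPure kit, given ERCC spike-in RNA and amplified with NuGEN Ovation RNA-seq v2, without molecular identifiers. The submitters' processing notes name TopHat2 2.0.6, HTSeq, Cuffdiff 2.1.1, DESeq2 and the builds NCBIM37 and mm9. The authors deposited raw read counts per Ensembl gene for all 48 libraries and a table of FPKM values. The FPKM table deposited by the authors was used only to compare genes per length and to check the order of populations; 552 of its values were marked as failed, none of them a collagen gene. ERCC sequences (92) and 5 summary lines, of which reads on no feature made up 20.4% to 46.7%, were left out of library sizes and tests. Replicates differed by more than sampling noise (chi-square per degree of freedom of at least 12.3), and no pair held the same values.

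Counts were analysed in R 4.3.3 with edgeR 4.0.16 (low-count filter by filterByExpr, TMM scaling, quasi-likelihood test, Benjamini-Hochberg adjustment over all genes of a fit, called under 0.05). Each fit held the populations of its comparison. DESeq2 1.42.0, another scaling, no filter, equal depth, all 48 libraries in 1 fit, the replicate number as a block and leaving out each library were the alternatives. The long-axis, transverse and regional fits were also run on simulated counts, with 1 spread for all genes and changes only in well-counted genes. That run does not cover genes near 0 reads or the differing spreads of the real genes. Python 3.11.15, pandas 2.3.3 and scipy 1.17.1 made the summaries. A gene was named in a comparison when it was called, its libraries did not overlap between groups and its higher mean reached 1 CPM; the 12 highest genes are described by library. A group with 0 reads gives a bound at 3 counts per library, and 1 to 3 reads give a ratio with a 95% interval; both cover counting error only. Members and lists were chosen with earlier results of these data known. Replicate numbers were not used to pair libraries in the main fits, and the pairing check below could not exclude that they do.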

Additional observations from a re-analysis of the deposited data

Results flagged for a closer look

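Each of these results was singled out because the dorsal over ventral difference of a collagen gene was itself different in CA3 or the dentate gyrus (DG) from that in CA1, by an interaction term of edgeR's quasi-likelihood test with Benjamini-Hochberg adjustment. A positive value means a larger dorsal over ventral log2 fold change than in CA1.

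Between CA3 and CA1, Col12a1 gave -7.02 ± 1.2 (SE; adjusted p = 0.00140), with 11.4 CPM in dorsal and 88.0 CPM in ventral CA3 and 0.896 CPM in dorsal and 0.0385 CPM in ventral CA1. Col25a1 gave 1.44 ± 0.37 (adjusted p = 0.0300), with 18.2 CPM in dorsal and 19.1 CPM in ventral CA3 and 30.9 CPM in dorsal and 85.6 CPM in ventral CA1. The Col25a1 result was lost without dorsal CA1 library 1 or 3, ventral CA1 library 1, dorsal CA3 library 1 or 3 or ventral CA3 library 2 or 3 (adjusted p 0.0705 to 0.127).

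Between DG and CA1, Col6a1 gave 8.55 ± 1.61 (adjusted p = 0.00171), with 1.08 CPM in dorsal and 0.831 CPM in ventral DG. Col11a1 gave -7.11 ± 1.33 (adjusted p = 0.00161) on 3 dorsal DG reads. Col12a1 gave -13.59 ± 1.79 (adjusted p = 7.76e-05), a fitted value that is no measure of size because dorsal DG had no read. Col25a1 gave -1.48 ± 0.37 (adjusted p = 0.0142), lost without ventral DG library 3 (0.0587). Col5a1 gave -5.83 ± 1.56 (adjusted p = 0.0208), lost without dorsal CA1 library 1 or ventral DG library 1 (0.0523 to 0.0671). Col19a1 gave -6.87 ± 1.99 (adjusted p = 0.0322), lost without dorsal CA1 library 1 or 3, ventral CA1 library 2 or 3 or ventral DG library 2 or 3 (0.0551 to 0.0844). Col14a1 gave 13.18 ± 3.43 (adjusted p = 0.0198), which rests on dorsal DG library 2 and on dorsal CA1 libraries with no read, and was lost without dorsal CA1 library 1, ventral CA1 library 3, dorsal DG library 2 or ventral DG library 2 or 3 (0.0507 to 1.00) and by DESeq2.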

How the results depend on the processing

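All 46 named gene results kept their direction under every alternative run, and 18 kept their call under all of them. The call was lost for 25 results with all 48 libraries in 1 fit, 5 at equal depth, 3 without the low-count filter, 2 with the replicate block, 1 by DESeq2 and 0 under DESeq2's size factors in edgeR. The counts of collagen genes called moved as follows, with the count reported above in brackets. With all 48 libraries in 1 fit they were 3 (6) for dorsal over ventral CA1, 0 (3) for intermediate over dorsal, 0 (1) for intermediate over ventral, proximal over distal and superficial over deep, 2 (1) for amygdala-projecting over ventral, 0 (2) for postsubiculum-projecting over dorsal, 1 (3) for dorsal over ventral CA3, 4 (8) for dorsal over ventral DG, 2 (5) for PV over dorsal CA1 and 0 (2) for the CA3 and CA1 interaction. Without the low-count filter they were 4 (1) for intermediate over ventral, 2 (1) for superficial over deep, 4 (0) for amygdala-projecting over accumbens-projecting, 5 (1) and 2 (1) for these 2 over ventral, 7 (3) for CA3 over CA1, 7 (4) for DG over CA1, 17 (10) for DG over CA3, 3 (5) for PV over dorsal CA1 and 4 (2) for the CA3 and CA1 interaction. DESeq2 gave 18 (32) for any difference among the 16 populations, 2 (1) for intermediate over ventral and superficial over deep, 2 (0) for amygdala-projecting over accumbens-projecting, 4 (1) and 2 (1) for these 2 over ventral, 5 (3) for dorsal over ventral CA3, 7 (3) for CA3 over CA1, 7 (4) for DG over CA1, 1 (0) for PV over SST and 4 (2) for the CA3 and CA1 interaction. Equal depth gave 20 (32) for any difference among populations, with 27 (38) members tested. The settings above also changed the number of members tested. The fit of all 48 libraries tested 38 in every comparison. Without the low-count filter and by DESeq2, 41 (12) were tested along the long axis and 42 (9) along the radial axis. These 2 settings tested 36 (17) in the ventral projection fit and 44 (23) in the regional fit. For DG over CA3 without that filter, 5617 of 24205 genes were called, against 5671 of 15549 above. The cause of the moves in the counts called was not tested.

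Leaving out libraries gave 17 to 22 called members for any difference among the 16 populations. It gave 4 to 7 for dorsal over ventral CA1, 1 to 4 for intermediate over dorsal, 0 to 2 for intermediate over ventral, 0 to 1 for proximal over distal and 1 to 2 for superficial over deep. It gave 0 for amygdala-projecting over accumbens-projecting, 0 to 3 and 0 to 2 for these over ventral, and 0 to 2 for postsubiculum-projecting over dorsal. It gave 2 to 5 for dorsal over ventral CA3, 5 to 9 for dorsal over ventral DG, 3 to 6 for CA3 over CA1, 4 to 9 for DG over CA1 and 9 to 15 for DG over CA3. It gave 0 to 1 for PV over SST, 2 to 7 for PV and 2 to 4 for SST over dorsal CA1, and 1 to 4 and 4 to 9 for the CA3 and DG interactions with CA1.

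In the pairing check, deviations of same-numbered libraries correlated at -0.049 to 0.072 over 17 comparisons. In 0 of them was every pair over 0.1. For superficial over deep CA1, the same number gave the best match in all 3 pairs, at 0.013 to 0.041. Such low correlations cannot exclude that same-numbered libraries shared animals or slices. The fit with the replicate block called 2 (1) members for intermediate over ventral and 3 (1) for amygdala-projecting over ventral, and lost the Col11a1 calls of PV and SST over dorsal CA1. Ventral CA1, intermediate CA1 and dorsal DG had the fewest reads, and the effect of depth by population was not tested.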
